A study of Mus musculus with 6 samples.

Results

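The 10 genes described here are identity genes of lung mesenchyme, the fibroblasts, pericytes and smooth muscle cells that lie beneath the endothelium. They are the transcription factor gene Tcf21, the receptor genes Pdgfra and Pdgfrb, the matrix genes Mfap4, Col1a1, Col1a2, Dcn and Lum, and the contractile genes Acta2 and Tagln. They came as a list of names with no limit on methylation, though the list was chosen with earlier results of these data known. They make up 10 of 20661 protein-coding genes in the RefSeq table used. For each gene, all measured 1 kb tiles that overlap its span or the 10 kb on either side were taken, which gave 392 of 1954255 tiles. The study sorted endothelial cells by flow cytometry from the lungs of Dnmt3a knockout mice, called KO, and wild-type mice, called WT. It measured their DNA methylation by tagmentation-based whole-genome bisulfite sequencing, in which a transposase fragments the DNA and bisulfite then converts unmethylated cytosines. Each group has 3 samples. The labels give tissue, cell type and genotype, while the mouse strain, age, sex, allele and any Cre driver were not given in the sources used. Nor do these say that the samples came from separate mice. The p-values therefore rest on sample-to-sample spread that could be technical.

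DNMT3A is a de novo DNA methyltransferase: it adds methyl groups to cytosines, mostly in CpG dinucleotides, that were not methylated before, while DNMT1 copies existing methylation at replication. Most of the genome of a differentiated cell is highly methylated, and CpG-rich gene starts, active enhancers and broad valleys over developmental regulators are not. TCF21 and the PDGF receptors are known as markers and regulators of lung fibroblasts and pericytes, the collagens and proteoglycans make the interstitial matrix, and smooth muscle actin and transgelin build the contractile apparatus of smooth muscle and myofibroblasts. Endothelial cells are not known as the main source of any of these products. A methylation level says nothing by itself about how much RNA a gene makes.

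The stretches around the annotated starts are shown for the 4 genes that the RefSeq promoter table (GRCm38.p6, the assembly named mm10) holds, because they show the sequence and its CpGs next to the start. The level of a start is averaged over whole 1 kb tiles, and so over more CpGs than these. Each runs 5′ to 3′ on the gene's strand from 250 bases before to 50 bases after the start, and capitals mark CpG dinucleotides.
Tcf21 (chr10:22820094-22820393, minus strand): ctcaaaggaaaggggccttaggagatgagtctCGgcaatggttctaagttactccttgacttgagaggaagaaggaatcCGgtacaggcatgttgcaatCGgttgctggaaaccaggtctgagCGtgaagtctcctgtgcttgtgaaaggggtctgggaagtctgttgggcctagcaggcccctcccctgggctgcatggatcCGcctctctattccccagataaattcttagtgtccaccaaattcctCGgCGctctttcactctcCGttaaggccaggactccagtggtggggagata
Pdgfra (chr5:75152001-75152300, plus strand): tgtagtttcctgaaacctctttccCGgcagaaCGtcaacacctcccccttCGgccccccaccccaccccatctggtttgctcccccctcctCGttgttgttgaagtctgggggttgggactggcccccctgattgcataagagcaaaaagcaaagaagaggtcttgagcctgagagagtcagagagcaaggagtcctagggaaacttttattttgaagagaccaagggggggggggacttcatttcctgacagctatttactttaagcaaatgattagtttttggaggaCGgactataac
Col1a2 (chr6:4505368-4505667, plus strand): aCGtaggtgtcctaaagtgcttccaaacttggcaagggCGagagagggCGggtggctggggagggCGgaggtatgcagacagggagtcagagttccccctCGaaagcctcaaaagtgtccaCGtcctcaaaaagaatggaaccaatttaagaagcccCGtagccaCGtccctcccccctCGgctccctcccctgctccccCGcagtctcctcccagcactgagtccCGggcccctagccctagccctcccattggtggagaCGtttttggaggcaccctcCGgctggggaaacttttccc
Acta2 (chr19:34255324-34255623, minus strand): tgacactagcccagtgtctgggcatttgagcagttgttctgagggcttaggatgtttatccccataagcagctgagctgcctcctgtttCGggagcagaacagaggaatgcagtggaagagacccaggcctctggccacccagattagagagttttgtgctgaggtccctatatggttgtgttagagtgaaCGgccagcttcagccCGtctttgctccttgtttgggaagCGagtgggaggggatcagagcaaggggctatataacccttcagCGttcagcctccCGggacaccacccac

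These stretches hold 8 CpGs in Tcf21, 5 in Pdgfra, 13 in Col1a2 and 6 in Acta2, beside a median of 7 (quartiles 3 and 20) over all 32851 stretches of 300 bases in the table. The GC-box letters GGGCGG occur 2 times in the Col1a2 stretch and in 35.7% of all stretches, searched on both strands. The letters CCAAT likewise occur 2 times in Col1a2 and in 37.4% of all stretches. Neither TATAAA, which 13.6% of all stretches hold, nor an exact match to the consensus of the CArG box, which 1.63% hold, was found in these windows of the 4 genes. Boxes that differ from the consensus at any base were not searched for. For Pdgfrb, Mfap4, Col1a1, Dcn, Lum and Tagln the tables used here give no strand. For them, as for 4060 genes in all, the less methylated end of the span, by its mean over the 6 samples, stands for the start and is called a gene end. The KO levels enter that mean, so a loss can itself help to choose the end. The tables used here do not tell which of the 2 ends such a gene starts from.

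A methylation level is given here in percent, and a difference between levels in percentage points, written as KO minus WT. Over all tiles the mean level was 63.7 ± 0.140% in KO and 69.0 ± 0.451% in WT (mean ± SD, n = 3), a difference of -5.36 points that had the smallest p a two-sided exact permutation test of 3 against 3 can give (0.10). All differences below include this genome-wide loss. Centring each sample on its median tile level shifts every difference by 4.89 points, since the KO median lay 4.89 points below the WT median. Read counts do not accompany the deposited levels. Depth is therefore unknown, and no counting interval can be computed for a tile. A bulk level of 50% can be a methylated and an unmethylated set of cells or partial methylation in every cell, and these cannot be told apart.

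At their starts or gene ends, the mean of tiles within 1000 bp, 8 of the 10 mesenchymal genes were lower in KO by at least 10 points with an adjusted p under 0.05. Over all 20136 genes measured there, 17.4% met that call. With the less methylated end used for every gene, the same 8 were called, beside 18.5% of all genes. Tcf21 was then measured at its opposite end (-16.6 points). The losses at Tcf21 and Mfap4 were far above the rest, at -43.0 and -31.4 points. The other 6 called genes, Tagln, Acta2, Pdgfrb, Lum, Dcn and Col1a2, lay between -13.6 and -10.1 points, close to the limit of the call. Col1a1 (-4.93 points) and Pdgfra (-0.626 points) did not reach it, and both were already low in WT. The median difference of the 10 was -11.4 points and that of all genes -4.51 points. On the centred scale, where the median of all genes is 0.381 points, 2 of the 10 starts were called, Tcf21 and Mfap4, beside 7.22% of all genes. With each sample scaled to the same mean level 4 were called, beside 10.4%. With tiles within 0.5 kb 6 were called, without Col1a2 (-8.73 points) and Dcn (-8.67 points), beside 13.7% of all genes. With tiles within 2 kb 7 were called, without Tagln and Lum (-9.70 points) and with Col1a1, beside 22.1% of all genes. Every KO sample lay below every WT sample at 8 of the 10 starts, beside 55.7% of all genes. The count of 8 fell to 5 without KO replicate 2 and to 5 without WT replicate 2, beside 17.3 and 18% of all genes. The cases behind these losses are Col1a2, Dcn and Lum, and their values follow with each gene.

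**Figure D1:**
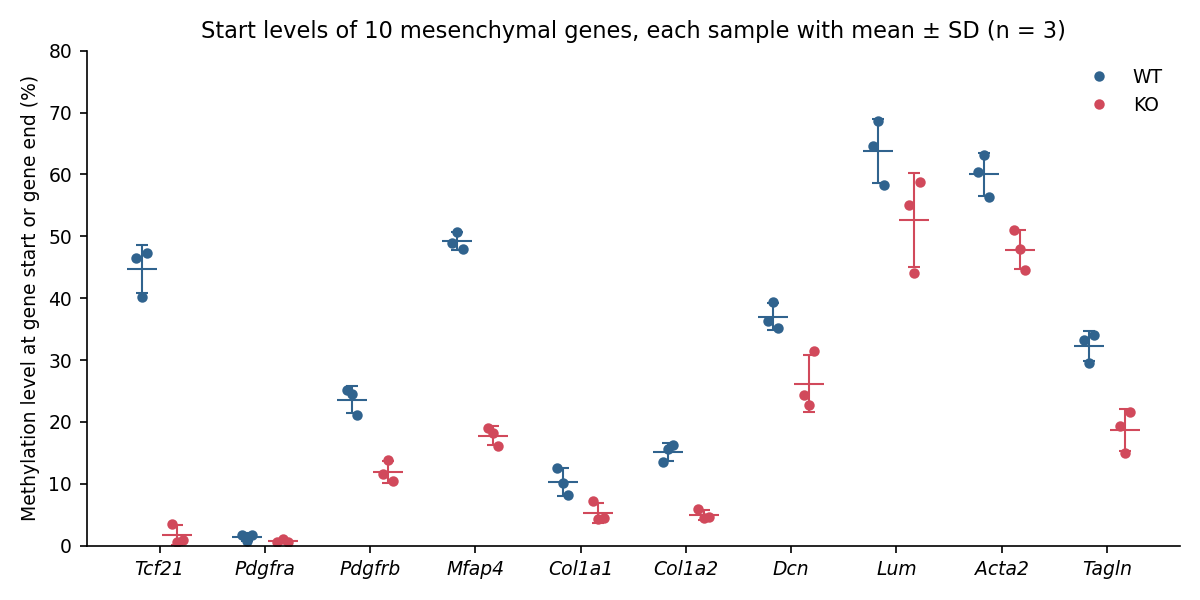
Methylation level in percent at the start or gene end of each of the 10 genes. Points are samples (3 WT in blue, 3 KO in red) and bars are mean ± SD. Tcf21 and Mfap4 show the widest gaps, 1.70 against 44.7% and 17.8 against 49.2%, while Pdgfra lies near 0 in all 6 samples and the groups of Lum overlap.

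**Figure D2:**
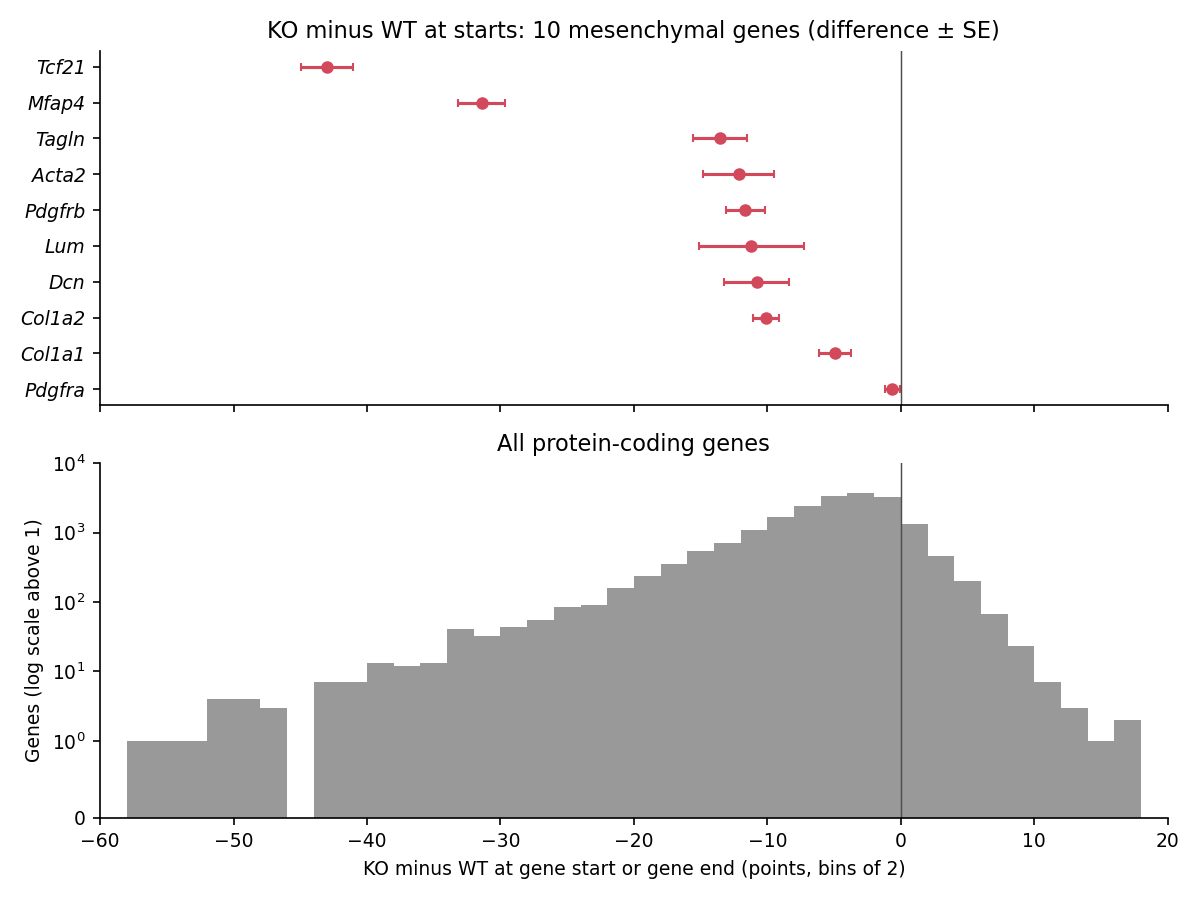
KO minus WT in points at the start or gene end. The upper panel gives the 10 mesenchymal genes with their standard errors, and the lower panel the number of all 20136 protein-coding genes in bins of 2 points on a log axis. Tcf21 and Mfap4 lie in the sparse left tail of all genes, and the other 8 lie in its dense part.

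Tcf21 encodes a basic helix-loop-helix transcription factor of lung fibroblasts and their progenitors. Its span is chr10:22817263-22820143 on the minus strand. The level at its start was 3.55, 0.613 and 0.948% in the KO samples and 46.5, 40.2 and 47.4% in the WT samples. The groups were far apart, with all 3 KO samples near 0 and all 3 WT samples at an intermediate level. The means were 1.70 ± 1.61% and 44.7 ± 3.89% (SD, n = 3), a loss of -43.0 points (SE 1.98, adjusted p = 6.07e-07). This loss ranked 20 among the 20136 starts, counted from the largest. Among the genes whose promoter stretch holds 5 to 9 CpGs, as that of Tcf21 does, the median start level was 54.2% in WT and 43.7% in KO over 1722 genes.

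The loss at Tcf21 extended beyond its start. Of its 23 tiles, 17 were called lower, where 16.2% of all tiles were. The window fell from 50.9 ± 0.466% in WT to 30.6 ± 1.002% in KO, and 125 is its rank among 20405 windows. The tile at the start, chr10:22820001-22821000, measured 2.79, 0.315 and 0.265% in KO and 56.9, 51.7 and 64.8% in WT, the widest difference of all 392 tiles (-56.6 points, adjusted p = 2.79e-10). Its upstream neighbour was almost equal, at 3.24 against 59.8%. The longest run of adjacent called tiles covered 12 tiles, chr10:22817001-22829000, at 27.2 ± 1.89% in KO and 54.0 ± 1.97% in WT.

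In KO, the 10 tiles from 22813001 to 22823000 all measured between 0.748 and 3.24%, an unbroken low stretch across the gene and both sides of it. In WT the same tiles ranged from 3.44 to 59.8%, so the stretch was broken by intermediate tiles. Counted per sample, 11, 10 and 10 tiles of the window lay under 10% in KO and 2, 3 and 2 in WT, with no overlap between the groups. The groups did not overlap in this count for Mfap4, Col1a1, Col1a2, Pdgfra and Pdgfrb either, and it was not made over all genes. The edges of the Tcf21 start, 1 to 5 kb from it, fell from 40.5 ± 3.42% to 18.7 ± 1.92% (-21.8 points, adjusted p = 9.02e-08). The flanks, 1 to 10 kb outside the gene, fell from 57.8 to 40.9% (-16.9 points, adjusted p = 1.84e-08). At the opposite end of the gene the level was 1.17 ± 0.527% in KO and 17.8 ± 3.77% in WT. The lncRNA gene Gm10824 (chr10:22813381-22821942) overlaps the Tcf21 span, and 6 of the 9 window tiles in it were called lower, so these tiles belong to both genes. Tcf21 has too short a span for a body measurement.

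The 2 PDGF receptors bind platelet-derived growth factors: PDGFRA marks fibroblasts of the alveolar wall, and PDGFRB marks pericytes and the fibroblasts around vessels. Pdgfra (chr5:75151322-75198206, plus strand, annotated start 75152251) measured 0.533, 1.14 and 0.599% at its start in KO and 1.77, 0.689 and 1.70% in WT. These ranges overlapped, and the difference of -0.626 points (adjusted p = 0.408) did not pass. On the centred scale this value turns to 4.27 points, since an end near 0 has no room for the genome-wide loss. With 5 CpGs in its stretch, Pdgfra belonged to the 4.41% of genes with 5 to 9 CpGs whose WT start lay under 10%.

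The Pdgfra start lies in a valley of 10 tiles, 75148001 to 75158000, whose means ranged from 0.357 to 5.50% in KO and from 0.606 to 12.9% in WT. The number of window tiles under 10% was 11, 11 and 11 in KO and 10, 9 and 9 in WT. So the valley had nearly the same extent in both groups, and the losses lay at its rims and beyond. At the upstream rim, tile 75148001 fell from 12.9 to 2.25% and tile 75147001 from 68.4 to 45.7%. Further upstream, the tile with the smallest p, 75144001, measured 21.3, 11.8 and 11.2% in KO and 41.8, 42.1 and 44.6% in WT (adjusted p = 1.26e-06). At the downstream rim, tile 75158001 fell from 63.0 to 43.4%. Another run of 5 called tiles lay beyond the far end of the gene, 75204001 to 75209000, at 66.0 ± 2.57% in KO and 82.7 ± 4.09% in WT.

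Summed over regions, the Pdgfra flanks were 47.8, 47.9 and 48.1% in KO and 61.3, 63.3 and 63.1% in WT. The groups were well separated, and the loss of -14.7 points (SE 1.19, adjusted p = 4.50e-08) ranked 939 among 20286 flanks. The edges of the start differed by -5.47 points, under the 10-point limit (adjusted p = 8.04e-05). The gene body, the tiles at least 1000 bp inside both ends, fell from 71.7 ± 0.308% to 66.1 ± 0.632%, and this difference of -5.64 points was close to the median of all bodies (-5.38 points).

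Pdgfrb (chr18:61045127-61085067) lost methylation at its gene end, where the KO samples measured 11.5, 13.9 and 10.4% and the WT samples 25.2, 24.4 and 21.1%. The groups did not overlap, and the difference was -11.7 points (SE 1.46, adjusted p = 1.54e-04). The loss was larger outside the gene end than on it. Its edges fell from 53.8 ± 1.60% to 39.1 ± 1.62% (-14.6 points, adjusted p = 4.57e-06), and the run of 4 called tiles 61041001 to 61045000 from 49.9 ± 2.37% to 26.6 ± 2.49%. In the tile with the smallest p, 61042001, the levels were 22.8, 24.8 and 29.1% in KO and 58.0, 56.3 and 59.3% in WT. The opposite end measured 78.4 ± 0.689% in KO and 77.6 ± 0.915% in WT. The predicted gene Gm52351 (chr18:61035576-61044713) holds 10 of the window's tiles, and 7 of these were called lower. Without tiles that overlap other protein-coding genes, the flank loss shrank from -10.3 to -4.06 points (adjusted p = 0.0392) and no longer met the call.

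Among the matrix genes, Mfap4 (chr11:61485431-61488708), which encodes a glycoprotein of elastic fibres, changed most at its gene end. That end measured 19.1, 18.2 and 16.1% in KO and 48.9, 50.8 and 48.0% in WT. No sample came near the other group, and the loss of -31.4 points (SE 1.79, adjusted p = 1.10e-06) ranked 116 among the starts. In the tile at that end, 61485001, the KO samples were at 1.31, 4.19 and 0.263% and the WT samples at 39.7, 36.0 and 44.1% (-38.0 points, adjusted p = 8.72e-10). A run of 5 called tiles around it, 61483001 to 61488000, fell from 63.2 ± 1.67% to 38.2 ± 0.526%. The other 3 called tiles of the window lost between -18.7 and -11.1 points. The opposite end measured 70.3 ± 8.19% in KO against 82.2 ± 5.03% in WT, -11.8 points apart. The flanks differed by -5.82 points, close to the median of all flanks (-5.82 points), a call that ended without KO replicate 2 (-4.53 points). Of the 7 window tiles in the neighbouring gene Mapk7 (chr11:61488812-61494267), 0 were called lower by limma and 2 were lower at an unadjusted p under 0.05. The lowest tile of the window, 61494001 at its far side, stayed at 0.575% in KO and 0.680% in WT.

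Col1a1 and Col1a2 encode the 2 chains of type I collagen, the main fibrillar collagen. Col1a1 (chr11:94936224-94953042) was low at its gene end in both groups, with 7.20, 4.32 and 4.53% in KO and 12.5, 10.2 and 8.12% in WT. The groups did not overlap, and the difference of -4.93 points (adjusted p = 0.00840) stayed under 10 points. With tiles up to 2 kb from that end it was -12.7 points (adjusted p = 1.45e-04) and called, since the losses lay next to the low tiles.

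Around that end, the Col1a1 edges fell from 45.7 ± 2.74% to 30.0 ± 3.61% (-15.7 points, adjusted p = 8.26e-06), and tile 94934001 lost -36.3 points. On the side towards the body alone, the edge difference was -8.92 points and not called. Towards the other end of the span, tile 94951001 measured 43.2, 39.1 and 38.3% in KO and 82.1, 77.6 and 85.3% in WT, again with no overlap (-41.4 points, adjusted p = 3.40e-07). The run of 4 called tiles there, 94950001 to 94954000, was at 33.4 ± 2.16% in KO and 57.6 ± 3.48% in WT. Tiles under 10% numbered 5, 5 and 8 in KO and 1, 1 and 1 in WT. The body fell by 12.0 points (57.5 to 45.6%, adjusted p = 9.58e-05) and the flanks from 51.6 to 38.0% (adjusted p = 1.42e-07). The lncRNA gene Gm46293 (chr11:94928561-94934616), which lies beside the low gene end, holds 7 of the window's tiles, 6 of them called lower.

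Col1a2 (chr6:4505618-4541543, plus strand) measured 5.94, 4.45 and 4.61% at its start in KO and 13.5, 15.7 and 16.2% in WT. The groups were separate with little spread, and the loss was -10.1 points (SE 0.992, adjusted p = 3.18e-05). It rested on the 10-point limit: the differences without KO replicate 2, KO replicate 3, WT replicate 2 and WT replicate 3 were -9.85, -9.93, -9.84 and -9.57 points, all with an adjusted p under 0.05. The 13 CpGs of its stretch put Col1a2 among genes with 10 to 19 CpGs, whose median WT start level was 31.3% over 2830 genes. The edges differed by -5.85 points and were not called. On the side towards the body they were -11.7 points (adjusted p = 0.00168), and on the upstream side 1.96 points in the opposite direction (adjusted p = 0.522).

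The widest Col1a2 difference lay far from the start, beyond the other end of the gene. There tile 4550001, 44.9 kb from the start, measured 10.3, 13.99 and 18.6% in KO and 56.3, 52.6 and 53.6% in WT (-39.9 points, adjusted p = 3.01e-08). A run of 4 called tiles at 4544001 to 4548000 was at 44.0 ± 2.82% in KO and 58.1 ± 1.62% in WT. The flanks as a whole fell from 66.0 to 57.2% (-8.84 points, adjusted p = 5.04e-05). The gene body differed by -4.84 points, just under the 5-point limit (adjusted p = 3.36e-04). Without WT replicate 3 it was -5.27 points and called, and after centring or scaling it was 0.0556 or 1.01 points, so its direction depends on the scale.

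Dcn and Lum encode decorin and lumican, small leucine-rich proteoglycans that bind collagen fibrils. Dcn (chr10:97479500-97518163) measured 24.3, 22.8 and 31.5% at its gene end in KO and 36.4, 39.4 and 35.2% in WT. The groups were apart by a narrow margin, and the difference was -10.8 points (SE 2.43, adjusted p = 0.00508). Without KO replicate 1, KO replicate 2 or WT replicate 2 it was -9.83, -9.09 or -9.57 points and no longer called. The called tiles of Dcn, 3 of the 46 measured, were adjacent at that end, 97479001 to 97482000, and averaged 26.6 ± 3.17% in KO and 41.1 ± 2.75% in WT.

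The edges of that end differed by -7.50 points (adjusted p = 0.00138), under the 10-point limit but with no overlap between the groups. The opposite end of Dcn measured 69.4 ± 4.55% in KO against 69.4 ± 5.09% in WT, and its flanks differed by -2.90 points (adjusted p = 0.0653). The body difference of -3.55 points was smaller than the median of all bodies. After centring it was 1.34 points and after scaling 2.07 points. The window of Dcn was the only one of the 10 that was not called lower (-3.59 points), and centred or scaled it was 1.30 or 1.73 points.

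Lum (chr10:97565501-97572703) was the most methylated of the 10 at its gene end, with 55.0, 44.1 and 58.7% in KO and 64.6, 68.6 and 58.3% in WT. KO replicate 3 lay just above WT replicate 3, so the groups overlapped, and the difference of -11.2 points (SE 3.95) passed by little (adjusted p = 0.0409). It did not pass without KO replicate 1 (-12.4 points, adjusted p = 0.0590), KO replicate 2 (-6.94 points), WT replicate 1 (-10.8 points) or WT replicate 2 (-8.81 points). A single tile of 26 was called, 97566001, at 50.4, 40.04 and 51.2% in KO and 61.8, 67.5 and 57.7% in WT. The Lum body difference of -6.49 points (adjusted p = 0.0478) lost its call without any of KO replicates 1, 2 and 3 or WT replicates 1 and 2, with adjusted p from 0.0674 to 0.144. The Lum flanks differed by -4.27 points and were called without KO replicate 3, WT replicate 2 or WT replicate 3 (-5.31 to -5.35 points). Its window (-5.17 points, adjusted p = 0.0170) lost the call without KO replicate 2 (-4.36 points) or WT replicate 1 (-3.05 points), and turned to 0.586 points after scaling.

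Of the contractile genes, Acta2 (chr19:34240336-34255585, minus strand, annotated start 34255373) encodes smooth muscle alpha-actin. Its start measured 51.0, 48.0 and 44.6% in KO and 60.5, 63.1 and 56.4% in WT. The groups did not overlap, and the difference was -12.1 points (SE 2.67, adjusted p = 0.00440). Acta2 lost methylation in every kind of region: -12.2 points at the edges (adjusted p = 2.35e-05), -12.4 points in the body (adjusted p = 8.91e-05), -10.7 points in the flanks (adjusted p = 2.39e-05) and -11.1 points over the window. With the flanks cut to 5000 bp their difference was -3.70 points and not called. On the upstream side alone the edges differed by -6.94 points and were not called either.

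Called Acta2 tiles were spread over the gene, 14 of 33 in the window. The tile with the smallest p, 34232001, lies beyond the far end of the gene, and its levels were 39.1, 37.8 and 39.7% in KO and 82.3, 72.1 and 75.7% in WT (-37.8 points, adjusted p = 1.63e-06). Inside the gene, tile 34244001 had the lowest mean level of the window, at 21.0, 23.8 and 22.2% in KO and 48.1, 56.3 and 54.3% in WT (-30.6 points). It belonged to a run of 5 called tiles, 34241001 to 34246000, at 49.0 ± 0.810% in KO and 66.9 ± 2.81% in WT. No sample had an Acta2 tile under 10%. The neighbours Stambpl1 (chr19:34190378-34240333) and the lncRNA gene Gm31355 (chr19:34256636-34278225) hold 11 and 7 of the tiles, with 2 and 3 called lower.

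Tagln (chr9:45929628-45936058) encodes transgelin, an actin-binding protein of smooth muscle. Its gene end measured 19.3, 15.0 and 21.7% in KO and 33.2, 29.5 and 34.0% in WT, with no overlap. The difference was -13.6 points (SE 2.01, adjusted p = 4.41e-04), and -9.56 points with tiles up to 2 kb away. The loss was centred on 3 adjacent tiles, 45935001 to 45938000. In the middle one, 45936001, the KO samples were at 1.98, 2.83 and 12.0% and the WT samples at 18.9, 19.8 and 20.2% (adjusted p = 6.79e-05). The body fell by 7.68 points (adjusted p = 0.0102) and the flanks by 6.88 points (adjusted p = 1.86e-04), both closer to the medians of all genes. The widest single difference, -24.8 points in tile 45941001, lies in the neighbouring gene Sidt2 (chr9:45937857-45958000). Pcsk7 (chr9:45906447-45932107) overlaps the far part of the Tagln span, and 1 of its 13 tiles in the window was called.

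Set side by side, the kinds of region differed in how far the 10 genes stood from the background. At the edges, 4 of 10 were called lower (Tcf21, Col1a1, Pdgfrb and Acta2), beside 26% of all genes. After centring 2 of 10 edges were, beside 10.1%. In the bodies 6 of 8 were called, all but Col1a2 and Dcn, beside 53.3% of all genes. In the flanks 8 of 10 were called, all but Dcn and Lum, beside 58.2%, and over the windows 9 of 10 beside 56.4%. At edges and in bodies, fewer than 2 calls separate these counts from the background shares, and after centring 2 of 8 bodies were called, Acta2 and Col1a1, beside 18.8% of all bodies. No KO mean of the 10 genes lay above its WT mean in any kind of region, so none was called higher by limma. Over all genes 0.0497% of starts, 0.0148% of edges, 0.013% of bodies, 0.0444% of flanks and 0.0343% of windows were. Median differences were -7.51 points at edges, -6.87 in bodies, -9.56 in flanks and -7.96 over windows. Over all genes they were -6.26, -5.38, -5.82 and -5.58 points. Every KO sample was below every WT sample in 9 of 10 edges, 7 of 8 bodies, 8 of 10 flanks and 10 of 10 windows, beside 69.4, 81.1, 77.5 and 84.4% of all genes.

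**Figure D3:**
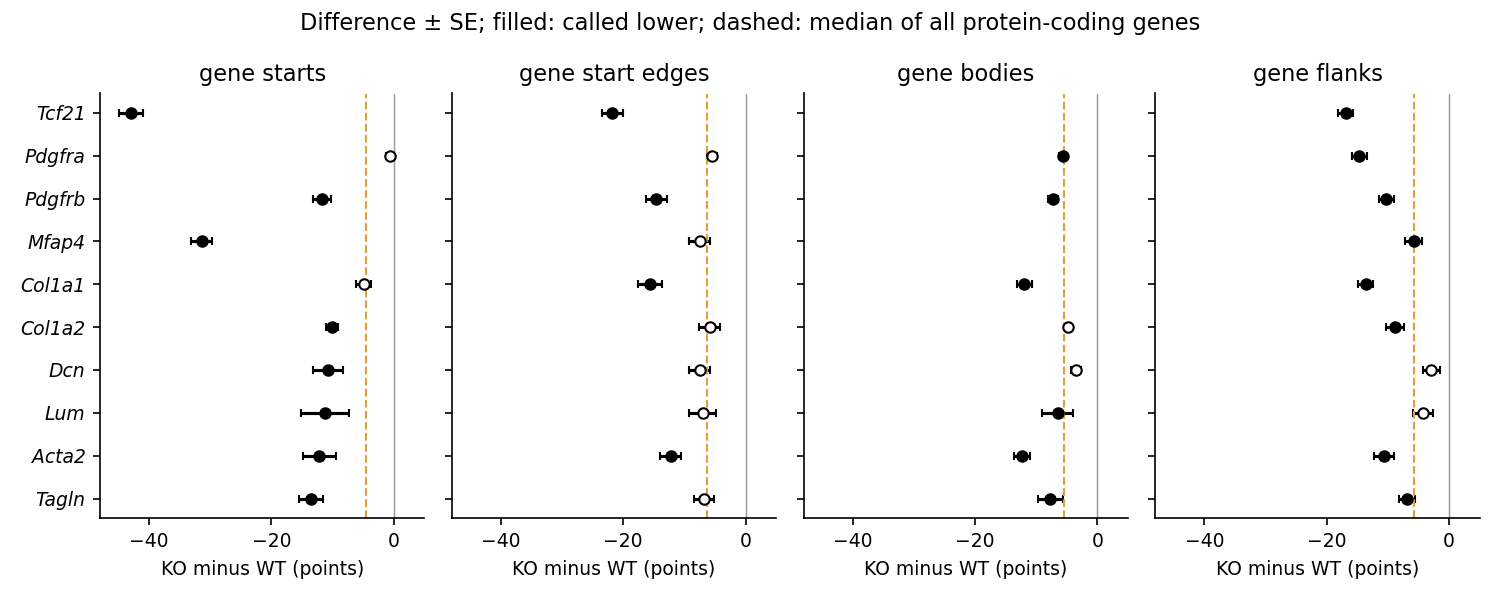
KO minus WT in points with standard errors for the 10 genes at starts, edges, bodies and flanks. Filled circles were called lower, open circles were not, and the dashed line is the median of all protein-coding genes, from -4.51 points at starts to -6.26 at edges. Tcf21 lies far left of the line at starts, edges and flanks, Mfap4 only at its start, and Dcn lies right of it in bodies and flanks. Tcf21 and Mfap4 have no body value.

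Tile by tile, 110 of the 392 tiles were called lower, or 28.1%, beside 16.2% of all tiles. Higher calls numbered 0, beside 0.0796% of all tiles. No tile was higher even at an unadjusted limma p under 0.05. The KO mean was above the WT mean in 39 tiles, by at most 7.14 points in Tagln tile 45939001 (adjusted p = 0.173). After centring, 53 tiles were called lower and 1 higher, beside 6.64% of all tiles lower and 18197 of all 1954255 higher. After scaling, 62 were called lower and 2 higher, beside 6.58% of all tiles lower and 30656 of all 1954255 higher. Every KO sample lay below every WT sample in 179 tiles (45.7%), beside 31.6% of all tiles. The 10 genes shared these calls unequally, from 17 of 23 tiles in Tcf21 and 15 of 35 in Col1a1 to 3 of 46 in Dcn and 1 of 26 in Lum.

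Pooled over the 10 genes, position within the window went with the size of the difference, but not in each gene. By tile centre, within 1 kb of the start or gene end, 12 of 21 tiles were called and the mean difference was -15.1 points. At 1 to 5 kb, 28 of 75 were called (-11.3 points), in the rest of the flanks 42 of 137 (-8.91 points) and in the rest of the gene 28 of 159 (-6.06 points). Within 1 kb the mean difference was -36.2 points in Tcf21 and -33.6 in Mfap4. Acta2, Dcn, Lum and Tagln also differed most in that zone. Pdgfra differed by -0.410 points there and by -15.1 in the rest of the flanks. Col1a1 differed by -9.44 points there and by -14.1 in the rest of the gene. For Col1a2 the values were -8.73 there and -10.3 in the rest of the flanks, and for Pdgfrb -13.95 there and -14.9 at 1 to 5 kb. These zones were not counted over all genes, so no background share stands beside them. For 6 of the 10 genes the reference point was itself picked as the less methylated end. Tiles were also grouped by their mean level over all 6 samples, to which the loss itself contributes, so these shares are descriptions. In the class of 10 to 50%, 69.1% of the tiles of the 10 genes were called (47 of 68), beside 38.7% of all such tiles. At 50 to 80% the shares were 23.4 and 15.6%, and at 80% and over 3.57 and 7.42%. Under 10%, 4 of 24 of their tiles were called (16.7%), beside 3.25%. Neighbouring tiles share noise, with deviations from the group mean correlating at 0.531 to 0.553 between adjacent tiles across all tiles, so tiles are not independent of each other.

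**Figure D4:**
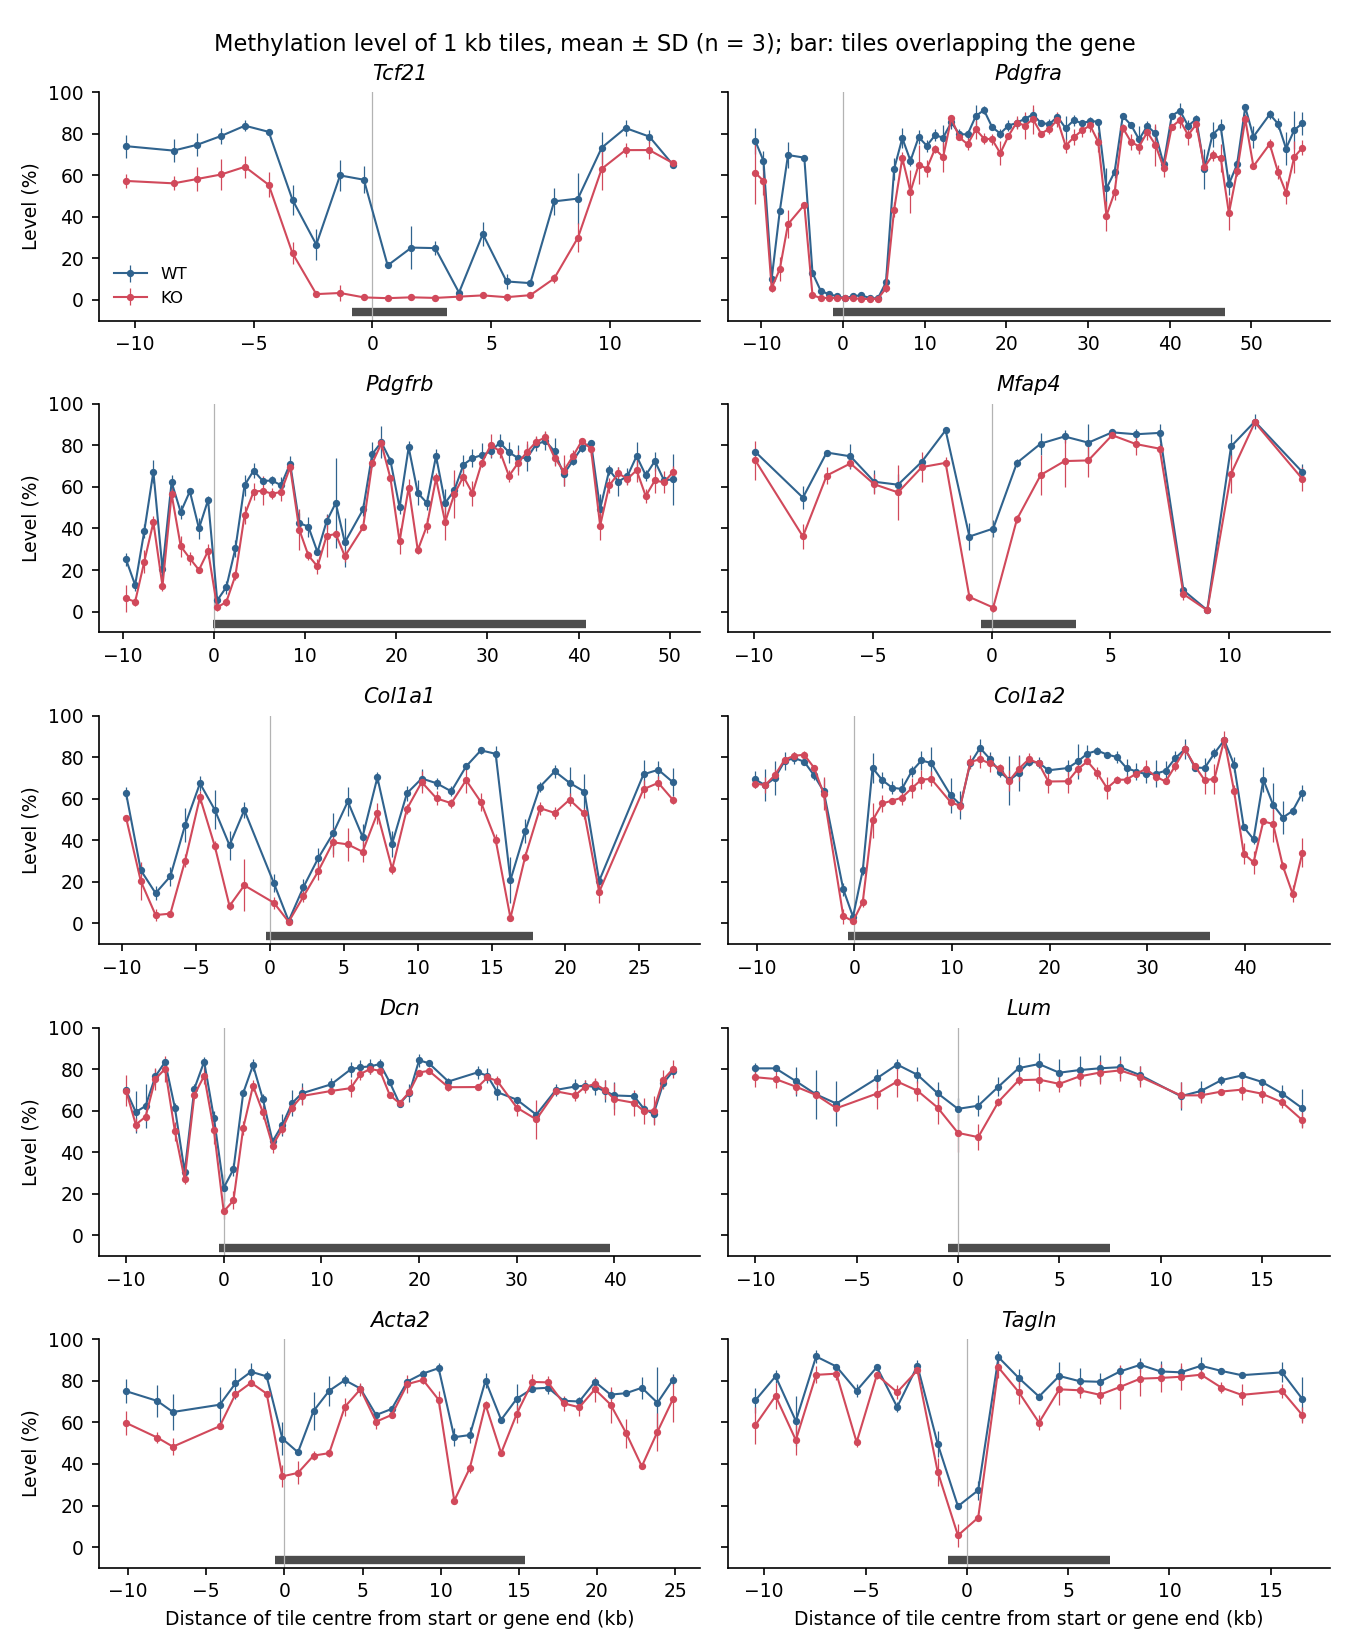
Mean level ± SD (n = 3) of each measured 1 kb tile in the window of each gene, WT in blue and KO in red, against the distance of the tile from the start or gene end in kb. Grey bars mark tiles that overlap the gene, and lines join measured neighbours. In Tcf21 the KO line stays near 0 across the gene, where the WT line reaches 57.8% in the tile at the start. In Pdgfra both lines share a valley, and in Dcn and Lum the lines run close together away from the gene end.

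Other mesenchymal genes gave a background for the 10, as did PDGF ligands and effectors, which are not counted as mesenchymal markers here. At starts, 10 of 24 fibroblast matrix genes, 6 of 16 contractile genes, 4 of 12 pericyte genes, 5 of 10 PDGF ligands and effectors, 2 of 18 mesenchymal transcription factors and 1 of 11 lipofibroblast and mesothelial genes were called lower, where 17.4% of all genes were. After centring the counts were 8, 3, 3, 2, 2 and 0, where 7.22% of all genes were, and the median of the lipofibroblast and mesothelial list turned from -3.47 to 1.42 points. Fbln1, which encodes a matrix glycoprotein of basement membranes and elastic fibres, fell from 44.2 ± 0.331% to 16.6 ± 1.63%, and its relative Fbln2 from 43.3 to 23.7%. Cox4i2, a respiratory chain subunit gene used as a pericyte marker, fell from 40.8 ± 2.16% to 10.2 ± 1.96% at its gene end. Src, a kinase recruited by PDGF receptors, fell from 54.9 to 18.4%, and the contractile gene Tpm2 from 23.0 to 6.96%. Adjusted p-values of these 5 lay between 8.60e-07 and 1.43e-05. Further called starts were those of the calponin gene Cnn2 (21.2 to 6.75%), the PDGF ligand gene Pdgfc (22.4 to 12.1%), the cation channel gene Trpc6 (15.7 to 2.61%) and the growth factor gene Fgf7 (66.6 to 56.3%), with adjusted p-values between 2.67e-06 and 0.00622.

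The mesenchymal transcription factors other than Tcf21 ranged from 0.593% (Foxf1) to 43.8% (Tbx4) at their starts in WT, with a median of 10.2%, and 2 of 18 were called there. The called ones were Tbx4, a T-box factor of lung mesenchyme, which fell from 43.8 ± 1.04% to 20.8 ± 1.38%, and Meox2, a homeobox factor, which fell from 24.96 ± 2.27% to 3.95 ± 1.19%. At their edges 12 of 18 were called, with a median of -12.2 points, where 26% of all genes were. After centring 6 of 18 were, beside 10.1%. Osr1, a zinc finger factor of early mesenchyme, was at 20.1, 17.4 and 18.2% there in WT and at 2.21, 2.11 and 2.11% in KO. In their bodies 13 of 15 were called, with a median of -11.7 points, where 53.3% of all genes were. The same counts were 11 of 24 edges and 14 of 23 bodies for fibroblast matrix genes, and 9 of 16 and 15 of 16 for contractile genes, in which the body of Cald1 fell from 72.0 to 56.9% and that of Mylk from 73.2 to 60.1%. For pericyte genes they were 2 of 12 and 6 of 12, no higher than those shares of all genes, for PDGF ligands and effectors 6 of 10 and 8 of 10, and for lipofibroblast and mesothelial genes 3 of 11 and 8 of 11. Pdgfb, the ligand gene known from endothelium, lost -22.1 points at its edges and Pdgfa -19.5 points.

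Markers of the sorted cells and of other lung cells were measured in the same way. In WT the starts of 20 endothelial genes had a median of 19.4% and ranged from 2.43% (Esam) to 52.7% (Vwf). Those of 15 leukocyte genes had a median of 69.2% and ranged from 22.6% (Cd4) to 78.6% (Csf1r). Those of 15 epithelial genes had a median of 45.3% and ranged from 1.66% (Nkx2-1) to 74.0% (Cldn18), so the ranges of the lists overlapped. The 10 mesenchymal genes had a WT median of 34.6% and a KO median of 14.9%. Starts called lower were 6 of 20 endothelial, 4 of 15 leukocyte and 6 of 15 epithelial genes, where 17.4% of all genes were. The median differences were -6.19, -7.26 and -6.96 points, and -1.30, -2.37 and -2.06 after centring. On the centred scale 4 of 20, 4 of 15 and 4 of 15 were called, beside 2 of the 10 mesenchymal genes and 7.22% of all genes. At edges 9 of 20 endothelial, 5 of 15 leukocyte and 8 of 15 epithelial genes were called, beside 26% of all genes. In bodies 14 of 17, 5 of 11 and 4 of 7 were, beside 53.3%. Shares above those of all genes were thus not limited to the mesenchymal lists. The part of other cell types in the differences of the mesenchymal genes was not tested.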

How the data were processed

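Genomic DNA of sorted lung endothelial cells was measured in 6 samples, from 30 ng of DNA each, and each sample had 3 libraries with paired reads of 100 bases, per the labels' protocols. The submitters' processing notes name BWA 0.7.8 and the build mm10. The deposited table gives a fraction, the methylation level, for each 1 kb tile on the 19 autosomes in each of the samples, per the file headers. The caller, any smoothing and any coverage filter were not given in the sources used here. Depth is unknown too, so the precision of a tile is known only from its 3 replicates.

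Levels were used in percent. The genotype labels gave 3 KO and 3 WT samples. Levels of tiles, and means over starts, edges, bodies, flanks and windows of all protein-coding genes, were tested with limma 3.58.1 (R 4.3.3, variance trend on the mean level), with Benjamini-Hochberg adjustment over all regions of a kind. Calls needed an adjusted p under 0.05 and 10 points (tiles, starts, edges) or 5 points (bodies, flanks, windows). Bodies needed at least 3 tiles. Gene spans came from RefSeq GRCm38.p6. The strand, and so the start, came from the promoter table for 16456 genes, and for 4060 the less methylated end was used. The tables hold no exons, introns or UTRs. The tile test was also run on simulated tiles with independent noise, with losses placed only in the more methylated tiles. That run does not cover region means, low starts or the correlation of neighbouring tiles.

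The genes and lists were chosen with earlier results of these data known. Named were all 10 genes and, in each window, the tile with the smallest p, the lowest tile and the longest run of called tiles. From each other mesenchymal list and the PDGF list, up to 2 called genes with the smallest p per kind of region were named. Of these, those at starts and some others are printed. Other tiles described, such as the rims of the Pdgfra valley and the low stretch of Tcf21, and the lowest and highest starts of a list were picked after their values were seen. Bgn of the fibroblast matrix list was not analysed here. The alternatives were centring, scaling, a logit scale, no variance trend, a replicate block, leaving out each sample, other minimum differences and other region limits. The use of the lower-level end for every gene, and of genes with an annotated start only, was added after seeing the data. Python 3.11.15, pandas 2.3.3, numpy 2.4.6 and matplotlib 3.10.9 did the rest.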

Additional observations from a re-analysis of the deposited data

How the results depend on the processing

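Depth is unknown, and 3 samples a group limit the precision. Centring each sample, scaling it and doubling the minimum difference moved most counts of lower calls. In that order, the 10 genes had 2, 4 and 2 starts, 2, 3 and 1 edges, 2, 2 and 2 bodies, 5, 5 and 5 flanks, 4, 4 and 4 windows and 53, 62 and 37 tiles called, with 1 and 2 tiles higher on the first and second scale. Of all 1954255 tiles, 18197 and 30656 were higher on these scales. All genes had 1454, 2090 and 576 starts, 2046, 2179 and 746 edges and 2882, 2646 and 2859 bodies called. For flanks the counts were 3887, 3774 and 3774, for windows 3475, 3461 and 3350 and for all tiles 129768, 128517 and 87938. As shares of all measured, these were 7.22, 10.4 and 2.86% of starts, 10.1, 10.7 and 3.68% of edges and 18.8, 17.2 and 18.6% of bodies. They were 19.2, 18.6 and 18.6% of flanks, 17, 17 and 16.4% of windows and 6.64, 6.58 and 4.5% of tiles. With the minimum difference at 5 points, 7843 starts (39%) and 12203 edges (60.2%) of all genes and 10 edges of the 10 genes were called. With genes of annotated start only, 3 of the 4 starts measured were called, as before, beside 16.5% of all genes. With flanks to 5 kb, 4 of 10 flanks were called, beside 59.1% of all genes. Leaving out each sample in turn gave 5 to 7 called starts, beside 17 to 18.3% of all genes. Directions turned on the centred and scaled levels for the bodies of Col1a2 (0.0556 and 1.01 points) and Dcn (1.34 and 2.07), the flanks of Dcn (1.99 and 2.39) and Lum (0.626 and 1.48) and the window of Dcn (1.30 and 1.73), for the Pdgfra start on centring (4.27) and the Lum window on scaling (0.586), and for the upstream edge of Col1a2 alone (1.96). Starts of Tcf21 and Mfap4 kept their call on both scales and at the doubled minimum difference. Replicate numbers did not pair the samples: same-numbered samples had deviations that correlated at 0.0056, -0.0032 and 0.0110. A replicate block changed 1 of 48 calls of the 10 genes, the Lum start (-11.2 points, adjusted p = 0.0613), and the logit scale and no variance trend changed 1 and 2. The causes of these shifts were not tested beyond what each setting does by construction.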
